A study of Mus musculus with 28 samples.

Results

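The genes described here are 45 that copy DNA, from the factors that license replication origins to the polymerases of the fork, the enzymes that supply its nucleotides and a few chromatin partners. The list is one of gene names, drawn up with earlier results of these data known. Each was found once among the 55536 genes of the deposited tables, and all 45 passed the filter on low counts in each of the 9 comparisons made. By role they comprise 5 licensing genes (Orc1, Orc6, Cdc6, Cdt1, Gmnn), 8 of the MCM group (Mcm2 to Mcm8 and Mcm10), 5 that complete the replicative helicase (Cdc45, Gins1 to Gins4), and 8 of the polymerases and primase (Pola1, Pola2, Prim1, Prim2, Pold1, Pold2, Pole, Pole2). A further 9 encode the sliding clamp, its loader and the factors that bind, trim and join DNA (Pcna, Rfc2 to Rfc5, Rpa1, Rpa2, Fen1, Lig1). The last 10 are 5 enzymes of nucleotide supply (Rrm1, Rrm2, Tyms, Tk1, Dut) and 5 genes of chromatin assembly, histone mRNA and transcription (Chaf1a, Chaf1b, Uhrf1, Slbp, E2f1).

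Polyadenylated RNA was sequenced from 3 wild-type mouse cell lines, in 7 groups of 4 libraries. EO771 is a breast cancer line, C2C12 a muscle line that the labels call myotubes, and MLg a line that the series uses as lung fibroblasts. Each line was sampled without a partner, EO771 and C2C12 were each sampled from their co-culture, and EO771 and MLg were each sampled from theirs. The series title names an antiproliferative effect of muscle cells on cancer cells, which is the reason to look at genes of DNA synthesis. Each line is a single established line, and no other strain, genotype or agent is named for any group. The sources used here do not say how long the lines were kept together, how the partners were separated, or whether libraries of a group came from separate cultures, so a p-value here measures only how these libraries vary, and that variation may be technical.

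A cell prepares to copy its genome in G1. The origin recognition complex, Cdc6 and Cdt1 load the MCM helicase onto DNA as an inactive ring, a step called licensing, which geminin (Gmnn) holds back after S phase has begun. At the start of S phase Cdc45 and the GINS complex join the ring to form the working helicase, with Mcm10 needed for its activation, and primase with polymerase alpha lays down the primers that polymerases delta and epsilon extend. Genes of this machinery are classical targets of the E2F transcription factors, and their transcripts are known to be more abundant in cycling cells than in arrested or terminally differentiated ones such as myotubes.

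Total counts ran from 27.6 to 96.5 M per library, and levels are given as CPM, the count of a gene per 1 M total counts of its library. Myotube markers were present in C2C12 alone (11 of 12 at 1 CPM or more, with Tnnc2 below it), at summed levels of 3853 CPM in R2-1, 364 in R3-1, 668 in R3-2 and 4826 in R5-1, so that the R3 libraries were far lower, and the 3 myoblast markers Pax7, Myf5 and Myod1 summed to 37.4 to 113 CPM there. Of 12 fibroblast markers 11 reached 1 CPM in MLg alone and also in C2C12 alone, with Thy1 below it in both. They summed to 35220 to 43840 CPM in MLg alone and to 48720 to 62560 CPM in C2C12 alone. The fibroblast list thus does not mark MLg apart from C2C12. Only 1 of 10 epithelial markers, Krt8, reached 1 CPM in EO771 alone, where Krt19 and Cldn4 were at 0, so the epithelial list does not mark these EO771 cells. Transcripts specific to the partner were counted in every co-cultured library. The 487 genes specific to C2C12 stood in EO771 with C2C12 at 0.976% to 2.46% of the level they had in C2C12 from the same co-culture, and those specific to MLg (479 genes) in EO771 with MLg at 1.06% to 1.93%. EO771-specific transcripts stood at 3.37% to 5.45% in C2C12 with EO771 (84 genes) and at 6.11% to 13.0% in MLg with EO771 (108 genes). In the lines grown alone all these shares were at most 0.0806%. That low value was set by the choice of the genes, at a mean of at most 0.1 CPM in that line alone. Genes that the recipient line itself raised in co-culture would also count in these shares.

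Replication genes were lower in EO771 cells from the co-culture with C2C12 than in EO771 alone. With edgeR's quasi-likelihood test, adjusted over 15794 genes, 29 of the 45 fell and 0 rose at an adjusted p under 0.05, whereas 14.3% of all genes tested fell and 18.7% rose. The median member was 0.40 lower on the log2 scale, against a median of 0.00 over all genes, and 40 of 45 members lay below 0. The largest falls were those of Mcm10 (log2 fold change -1.06), Cdc6 (-0.999), Orc1 (-0.91), Pole (-0.78) and Pola1 (-0.70). In 28 members all 4 libraries with C2C12 lay below all 4 of EO771 alone, as in 12.9% of all genes tested, and 27 of these 28 were among the 29 called. These are bulk libraries, in which fewer cells that make a transcript and less of it per cell cannot be told apart.

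Libraries are listed below in a fixed order: R3-1, R3-2, R5-1 and R6-2 for EO771 alone, R5-1, R5-2, R6-1 and R3-1 with C2C12, and R6-1, R5-1, R6-2 and R7-1 with MLg. Summed over the 45 genes, the level was 5325 to 5563 CPM in EO771 alone, 4714, 4447, 4472 and 3502 CPM with C2C12, and 4874 to 5471 CPM with MLg. The 4 libraries with C2C12 thus lay below every other EO771 library, and R3-1 was the lowest of them, in the sum and in 38 of the 45 single genes. Without R3-1, 25 members were lower than in EO771 alone and 0 higher. Over all single libraries left out in turn the number of members that fell was 25 to 28, and 25 of the 29 passed each time. The exceptions were Lig1, Rrm1, Dut and Uhrf1.

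**Figure D1:**
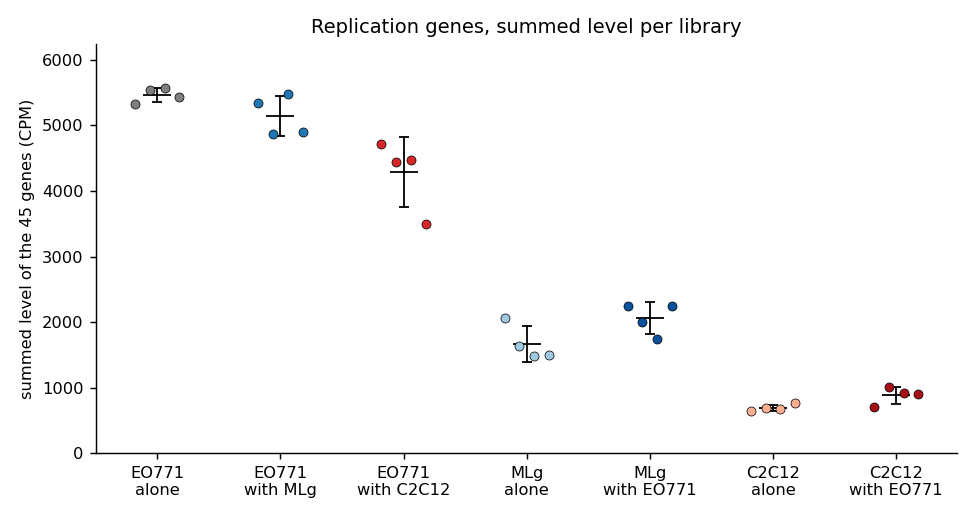
Summed level of the 45 replication genes in each library, in CPM, with the 7 groups along the horizontal axis, a point per library and bars for the mean and SD. EO771 alone sits at 5325 to 5563 CPM and EO771 with C2C12 at 3502 to 4714, while MLg alone (1482 to 2066) and C2C12 alone (645 to 761) lie far lower.

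Myotube markers moved with the group. They summed to 88.9 to 367 CPM in EO771 with C2C12, against 9.45 to 10.7 CPM in EO771 alone. Tnnc2 was at 0 in EO771 with C2C12. To remove RNA of the partner, C2C12 counts were subtracted from each of these libraries in proportion to its share of C2C12-specific transcripts. After that subtraction 26 of the 29 members remained lower (all but Rrm1, Dut and Uhrf1) and 0 were higher. The mean level of Mcm10 in EO771 with C2C12 was 78.5 CPM before and 78.4 CPM after it. A single fit of all 28 libraries called 17 members lower. In R5-1, R6-1 and R3-1 of EO771 with C2C12, and in no other EO771 library, every count was an even number. With these counts halved 30 members were lower. Halving leaves the CPM of a library unchanged. It thus cannot show whether another way of counting in these libraries moved the members.

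**Figure D2:**
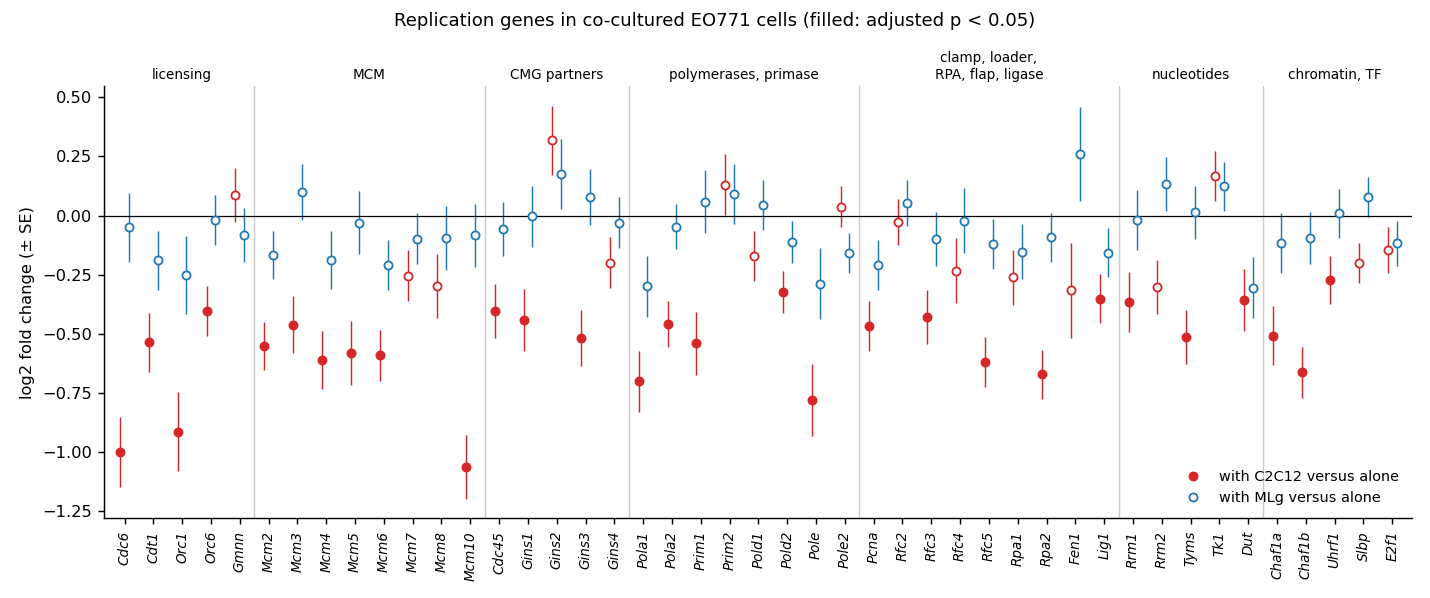
Log2 fold change of each of the 45 genes in EO771 with C2C12 and in EO771 with MLg, each against EO771 alone. Genes are ordered by role, and bars show the SE. Filled points passed an adjusted p of 0.05: 29 of 45 with C2C12, all below 0, and 0 of 45 with MLg.

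Promoter sequence was available for 37 of the 45 genes as RefSeq windows of 300 bases on GRCm38.p6, from 250 bases before to 50 after each annotated start (43 windows, since some genes have more than 1). Mcm4, Gins1, Gins2, Gins4, Gmnn, Rfc2, Prim2 and Pole had none. The E2F letters TTTCCCGC, TTTGGCGC, TTTCGCGC and TTTGCCGC were searched on both strands, with overlapping matches kept. They occurred in 15 of 37 members (40.5%), in 17 of 49 other replication genes (34.7%) and in 704 of 27025 genes with a window (2.61%). The 6 windows below were picked after their values and matches were seen, to show what such matches look like. They include those of 4 members that fell and hold E2F letters (Mcm5, Mcm6, Cdc6 and Orc1). The others are of the member with the largest fall, which holds none in full (Mcm10), and of a member that did not fall and holds them (Pole2). The windows of Rpa2 and Chaf1b, which fell more than Mcm5 and Mcm6, hold none either. They read 5′ to 3′ along the gene's strand, with E2F letters in capitals.
Mcm5: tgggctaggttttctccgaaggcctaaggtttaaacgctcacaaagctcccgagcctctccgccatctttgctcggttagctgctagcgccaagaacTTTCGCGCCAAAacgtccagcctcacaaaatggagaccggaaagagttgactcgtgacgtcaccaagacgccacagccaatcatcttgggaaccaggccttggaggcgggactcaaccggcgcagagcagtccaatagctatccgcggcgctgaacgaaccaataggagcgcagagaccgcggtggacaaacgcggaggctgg
Mcm6: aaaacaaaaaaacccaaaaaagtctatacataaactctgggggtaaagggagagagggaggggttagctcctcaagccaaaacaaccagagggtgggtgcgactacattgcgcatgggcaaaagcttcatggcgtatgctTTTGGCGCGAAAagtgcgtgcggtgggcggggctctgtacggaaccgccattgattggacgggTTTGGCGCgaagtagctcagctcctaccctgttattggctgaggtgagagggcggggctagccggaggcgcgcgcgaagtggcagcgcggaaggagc
Cdc6: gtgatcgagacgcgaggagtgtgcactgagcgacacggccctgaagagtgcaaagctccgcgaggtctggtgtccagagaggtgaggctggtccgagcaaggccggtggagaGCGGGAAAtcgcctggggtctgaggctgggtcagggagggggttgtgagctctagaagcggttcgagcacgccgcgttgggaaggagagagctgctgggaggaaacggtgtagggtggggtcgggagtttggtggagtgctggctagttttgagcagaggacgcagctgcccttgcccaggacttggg
Orc1: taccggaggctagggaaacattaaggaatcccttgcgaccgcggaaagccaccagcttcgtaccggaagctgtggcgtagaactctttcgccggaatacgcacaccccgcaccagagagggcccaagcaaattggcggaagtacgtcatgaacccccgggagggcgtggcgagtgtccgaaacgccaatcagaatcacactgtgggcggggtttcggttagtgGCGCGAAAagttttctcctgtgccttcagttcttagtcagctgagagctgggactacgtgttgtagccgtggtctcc
Mcm10: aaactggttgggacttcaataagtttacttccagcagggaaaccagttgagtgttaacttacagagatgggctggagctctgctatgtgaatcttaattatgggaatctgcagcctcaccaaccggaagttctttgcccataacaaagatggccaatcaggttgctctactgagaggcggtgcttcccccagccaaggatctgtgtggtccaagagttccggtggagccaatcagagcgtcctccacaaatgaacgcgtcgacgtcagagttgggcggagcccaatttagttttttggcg
Pole2: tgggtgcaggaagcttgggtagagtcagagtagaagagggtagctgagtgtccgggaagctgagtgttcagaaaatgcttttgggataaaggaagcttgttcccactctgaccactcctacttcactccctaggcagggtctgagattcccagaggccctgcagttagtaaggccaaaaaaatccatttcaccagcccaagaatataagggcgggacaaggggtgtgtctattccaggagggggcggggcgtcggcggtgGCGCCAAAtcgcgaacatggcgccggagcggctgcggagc

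The Mcm5 window (chr8:75109259-75109558, plus strand) holds 2 overlapping matches, at 153 and 149 bases before the start. Mcm6 (chr1:128359656-128359955, minus strand) holds 3, an overlapping pair and a single match nearer the start. Cdc6 (chr11:98907901-98908200, plus strand) and Orc1 (chr4:108579204-108579503, plus strand) have 1 each. In GENCODE, the other annotation used here, Cdc6 starts at 98907801, so its whole window lies past that start. The window of Mcm10 (chr2:5012742-5013041, minus strand), the member with the largest fall, has no full match. It ends in tttggcg, which is TTTGGCGC without its last letter, so a match across that edge could not be seen. The window of Pole2 (chr12:69228141-69228440, minus strand), which did not fall, has 1 just past the start. Of the 26 members with a window that were lower in EO771 with C2C12, 11 held E2F letters (42.3%), as did 4 of the 11 that were not called (36.4%). The CCAAT box (CCAAT) was found in 23 of 37 members (62.2%) against 41.1% of all genes, and the core letters of the hypoxia response element (ACGTG or GCGTG) in 25 of 37 (67.6%) against 46.7%. The cell cycle letters TTTGAA or TTCGAA occurred in 7 of 37 (18.9%) and in 21.7% of all genes. Such matches describe the letters of these windows and not the binding of a factor.

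Among the 8 genes of the MCM group 6 fell in EO771 with C2C12, at a median of -0.57 over the group. Mcm10 (ENSMUSG00000026669, chromosome 2, 4989714 to 5012791, minus strand), which is needed to activate the loaded helicase, stood at 161, 165, 157 and 141 CPM in EO771 alone, 93.1, 85.1, 82.2 and 53.8 with C2C12 and 137, 161, 141 and 144 with MLg. All libraries with C2C12 lay well below the other 8, which overlapped each other. Against EO771 alone the level was 2.09-fold lower, a log2 fold change of -1.06 (SE 0.13, adjusted p = 9.99e-06 by edgeR), and it ran from -1.15 to -0.91 with single libraries left out.

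Mcm5 (ENSMUSG00000005410, chromosome 8, 75109569 to 75128439, plus strand), a subunit of the helicase ring, was measured at 339, 396, 375 and 351 CPM in EO771 alone, 299, 273, 281 and 174 with C2C12 and 374, 347, 369.7 and 328 with MLg. It was lower with C2C12 than in any other EO771 library, with R3-1 at the bottom. It fell by 0.58 on the log2 scale (SE 0.14, adjusted p = 0.00277). The ring subunits Mcm2 and Mcm3 behaved alike. Mcm2 stood at 222, 263, 241 and 233 CPM in EO771 alone, 193, 186, 172 and 139 with C2C12 and 211, 205, 218 and 215 with MLg, and Mcm3 at 235, 254, 256 and 235 CPM in EO771 alone, 213, 202, 196 and 137 with C2C12 and 272, 262, 270.3 and 236 with MLg. Neither gene's libraries with C2C12 overlapped those of either other group. Mcm6 (ENSMUSG00000026355, chromosome 1, 128331590 to 128359664, minus strand), also of the ring, stood at 249, 232, 253 and 245 CPM in EO771 alone, 184, 164, 187 and 149 with C2C12 and 238, 181, 234 and 189 with MLg. Its libraries with C2C12 lay below EO771 alone but overlapped those with MLg, of which R5-1 and R7-1 were low. It fell by 0.59 (SE 0.11, adjusted p = 0.000334), and the ring subunit Mcm4 by 0.61 (SE 0.12, adjusted p = 0.000874). The 2 genes of the group that did not pass were Mcm7, the last subunit of the ring, at -0.25 (SE 0.11, adjusted p = 0.0796), and Mcm8, which acts in a separate helicase, at -0.30 (SE 0.14, adjusted p = 0.103). Reads of Mcm7 may be shared with Ap4m1 and Cops6 on the other strand, since 385 of its 4426 exon bases overlap theirs and no source used here says whether reads were counted by strand.

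Of the licensing genes 4 of 5 fell, at a median of -0.54. Cdc6 (ENSMUSG00000017499, chromosome 11, 98907801 to 98923940, plus strand), which loads the helicase together with the origin recognition complex, stood at 67.8, 81.6, 86.0 and 71.7 CPM in EO771 alone, 52.8, 42.8, 38.1 and 27.8 with C2C12 and 70.4, 80.1, 71.2 and 72.2 with MLg. The highest library with C2C12 lay below the lowest of the other 8. The level was 2.00-fold lower than in EO771 alone, a log2 fold change of -0.999 (SE 0.15, adjusted p = 4.85e-05). Orc1 (ENSMUSG00000028587, chromosome 4, 108579423 to 108614833, plus strand), the largest subunit of the origin recognition complex, was at 32.6, 31.8, 37.7 and 39.9 CPM in EO771 alone, 23.6, 19.9, 24.0 and 11.8 with C2C12 and 28.7, 27.9, 32.3 and 29.6 with MLg. Its libraries with C2C12 also lay below all others, and R3-1 was far lower than the rest. It fell by 0.91 (SE 0.17, adjusted p = 0.000387), and Orc6, another subunit of that complex, by 0.40 (SE 0.11, adjusted p = 0.00654).

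Cdt1, the second loader, stood at 95.9, 83.7, 102 and 105 CPM in EO771 alone, 67.0, 74.3, 77.0 and 62.8 with C2C12 and 67.4, 72.7, 90.6 and 107 with MLg. Here the libraries with C2C12 lay below EO771 alone, but those with MLg spread over both ranges. It fell by 0.54 with C2C12 (SE 0.12, adjusted p = 0.00287). Gmnn encodes geminin, the inhibitor of Cdt1, and was the licensing gene that did not fall. It stood at 53.5, 40.8, 45.9 and 49.3 CPM in EO771 alone, 58.0, 55.5, 52.9 and 45.5 with C2C12 and 45.7, 37.4, 52.3 and 42.4 with MLg, with the 3 groups overlapping. Its log2 fold change with C2C12 was 0.09 (95% interval -0.15 to 0.33, adjusted p = 0.593 by edgeR).

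Of the genes that complete the helicase, Cdc45, Gins1 and Gins3 fell and Gins2 and Gins4 did not pass, with a group median of -0.40. Cdc45 stood at 53.2, 55.0, 49.4 and 49.9 CPM in EO771 alone, 46.1, 43.9, 43.9 and 31.2 with C2C12 and 53.5, 43.3, 52.8 and 48.3 with MLg. Its libraries with C2C12 lay below EO771 alone, R3-1 lowest, and 1 of the libraries with MLg lay among them. It fell by 0.40 (SE 0.11, adjusted p = 0.0112). Gins1 was at 23.7, 21.5, 25.8 and 26.1 CPM in EO771 alone, 22.2, 19.6, 19.1 and 14.3 with C2C12 and 21.4, 22.3, 26.3 and 26.4 with MLg, where R5-1 with C2C12 reached into the range of EO771 alone. Gins3 fell by 0.52 (SE 0.12, adjusted p = 0.00241). Gins2, a subunit of the same complex, lay on the other side of 0 from the rest of this group. It was measured at 19.6, 18.1, 18.0 and 19.2 CPM in EO771 alone, 24.3, 26.0, 23.6 and 24.5 with C2C12 and 26.1, 15.0, 26.0 and 17.1 with MLg, so that every library with C2C12 lay above every library alone. The log2 fold change of 0.32 did not pass (adjusted p = 0.105), although it did with the R number of the library names as a block (adjusted p = 0.04). Of its 4097 exon bases 2758 overlap exons of Gse1 on the opposite strand, so part of its counts may come from that gene.

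**Figure D3:**
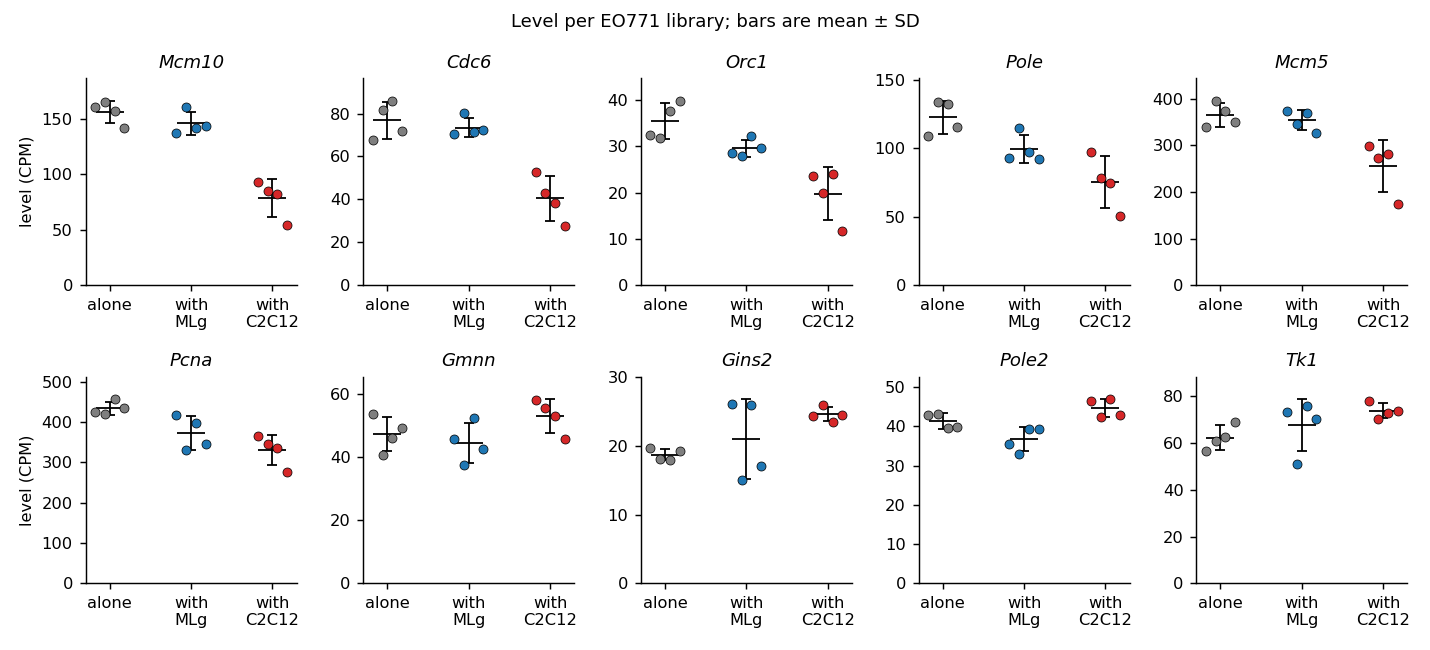
Level in CPM of selected replication genes in each EO771 library, alone, with MLg and with C2C12, a point per library and bars for the mean and SD. For Mcm10 and Cdc6 the 4 libraries with C2C12 lie below all 8 others, while for Gmnn the 3 groups overlap.

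Among the 8 genes of polymerases and primase 5 fell, at a group median of -0.39. Pole (ENSMUSG00000007080, chromosome 5, 110286306 to 110337474, plus strand), the catalytic subunit of polymerase epsilon, which copies the leading strand, stood at 109, 134, 132 and 116 CPM in EO771 alone, 97.0, 78.4, 74.5 and 50.7 with C2C12 and 93.1, 114, 97.5 and 92.5 with MLg. All libraries with C2C12 lay below those of EO771 alone, and R5-1 with C2C12 lay within the range with MLg. The level was 1.72-fold lower (-0.78 on the log2 scale, SE 0.15, adjusted p = 0.00063). Its partner subunit Pole2, in contrast, stood at 42.9, 43.2, 39.5 and 39.7 CPM in EO771 alone, 46.5, 42.5, 46.8 and 42.8 with C2C12 and 35.6, 32.9, 39.3 and 39.3 with MLg. The libraries with C2C12 overlapped those of EO771 alone and lay above all 4 with MLg. Its log2 fold change against EO771 alone was 0.04 (95% interval -0.14 to 0.22, adjusted p = 0.774), and the interval of Pole was -1.10 to -0.46. The difference between the 2 genes was not tested.

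Pola1 (ENSMUSG00000006678, chromosome X, 93304767 to 93632155, minus strand), the catalytic subunit of polymerase alpha, was at 159, 172, 163 and 171 CPM in EO771 alone, 133, 113, 104 and 81.1 with C2C12 and 139, 147, 134 and 115 with MLg. The libraries with C2C12 lay below EO771 alone, and R5-1 among them fell within the spread with MLg. It fell by 0.70 (SE 0.13, adjusted p = 0.000379), and its partner Pola2 by 0.46 (SE 0.10, adjusted p = 0.00127). Prim1, the catalytic subunit of primase, stood at 77.7, 68.0, 62.2 and 66.0 CPM in EO771 alone, 61.0, 52.1, 49.3 and 35.6 with C2C12 and 69.6, 71.4, 78.2 and 63.5 with MLg. Its libraries with C2C12 lay below all others, and it fell by 0.54 (SE 0.13, adjusted p = 0.0042). The large subunit of primase, Prim2, did not pass (0.13, 95% interval -0.14 to 0.40). Pold1, the catalytic subunit of polymerase delta, stood at 115, 120.5, 124 and 122 CPM in EO771 alone, 118, 117, 112 and 102 with C2C12 and 95.5, 128, 124 and 146 with MLg. The 3 groups overlapped, and the log2 fold change with C2C12 was -0.17 (adjusted p = 0.237). Pold2, which binds Pold1, fell by 0.32 (SE 0.09, adjusted p = 0.00966).

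Of the 9 genes of the clamp, its loader and the factors that process DNA at the fork, Pcna, Rfc3, Rfc5, Rpa2 and Lig1 fell, and Rfc2, Rfc4, Rpa1 and Fen1 did not pass. The group median was -0.35. Pcna (ENSMUSG00000027342, chromosome 2, 132249162 to 132253314, minus strand), the sliding clamp that holds polymerases on DNA, stood at 425, 419.7, 457 and 434 CPM in EO771 alone, 364, 344, 335 and 276 with C2C12 and 418, 329.6, 397 and 345 with MLg. All libraries with C2C12 lay below EO771 alone, and those with MLg also lay below EO771 alone, with R5-1 and R7-1 in the range of the libraries with C2C12. It fell by 0.47 (SE 0.11, adjusted p = 0.00224). A copy, Pcna-ps2, matches 781 bases of its transcript at 99.2% identity and was itself counted at 6.97 CPM in EO771 alone, so some reads may be divided between them.

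Rpa2, the middle subunit of the single-strand binding protein RPA, had the largest fall of this group. It stood at 50.2, 44.1, 48.4 and 48.8 CPM in EO771 alone, 33.6, 34.9, 31.9 and 26.1 with C2C12 and 42.0, 44.9, 47.5 and 43.8 with MLg, with no overlap between the libraries with C2C12 and the other 8. The fall was 0.67 on the log2 scale (SE 0.10, adjusted p = 7.92e-05), against -0.26 for Rpa1, the large subunit, which did not pass (adjusted p = 0.0948). The clamp loader subunit Rfc3 was measured at 33.8, 42.0, 35.5 and 38.0 CPM in EO771 alone, 30.0, 28.4, 31.6 and 26.8 with C2C12 and 38.8, 26.4, 38.8 and 34.6 with MLg. It fell by 0.43 (SE 0.11, adjusted p = 0.00757), although R5-1 with MLg was lower than any library with C2C12. Lig1, the ligase that joins Okazaki fragments, stood at 139, 155, 156 and 161 CPM in EO771 alone, 135, 132, 132 and 105 with C2C12 and 130.5, 148, 136 and 127 with MLg. Its libraries with C2C12 lay below EO771 alone but overlapped those with MLg. Its fall of 0.35 (adjusted p = 0.014) ended without R3-1 of the libraries with C2C12 (adjusted p = 0.0527). Fen1, the flap endonuclease, was at 13.2, 10.2, 14.6 and 13.2 CPM in EO771 alone, 12.4, 13.8, 11.1 and 5.94 with C2C12 and 13.5, 14.9, 18.2 and 14.5 with MLg, with R3-1 low and the other 3 libraries with C2C12 inside the range of EO771 alone. Of its 2422 exon bases 2039 overlap Gm10143 and Tmem258 on the other strand, so its counts are uncertain.

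Nucleotide supply was split, with Rrm1, Tyms and Dut lower and Rrm2 and Tk1 not called. Tyms, which makes dTMP, stood at 49.6, 45.4, 47.2 and 49.2 CPM in EO771 alone, 40.1, 35.6, 38.6 and 26.8 with C2C12 and 48.2, 46.1, 52.2 and 45.3 with MLg. The libraries with C2C12 lay below all 8 others, and the fall was 0.51 (SE 0.11, adjusted p = 0.00204). Rrm1 and Rrm2 encode the large and small subunits of ribonucleotide reductase. Rrm1 was at 325, 292, 309 and 322 CPM in EO771 alone, 290.2, 273, 269 and 186 with C2C12 and 337, 271, 339 and 276 with MLg, and Rrm2 at 308, 304, 345 and 353 CPM in EO771 alone, 300.1, 292, 311 and 217 with C2C12 and 358, 326, 396 and 350.3 with MLg. For both genes R3-1 was far below the other libraries with C2C12, which for Rrm1 lay just below EO771 alone and for Rrm2 reached into its range. Rrm1 fell by 0.36 (adjusted p = 0.0325), a call that ended without R3-1 with C2C12 (adjusted p = 0.106) and without R3-1, R5-1 or R6-2 of EO771 alone (0.072, 0.0697 and 0.077), and Rrm2 was at -0.30 (adjusted p = 0.0506). Tk1, the thymidine kinase of the salvage route, lay on the other side of 0. It stood at 56.6, 61.0, 62.7 and 69.2 CPM in EO771 alone, 78.1, 70.3, 73.1 and 73.8 with C2C12 and 73.4, 51.2, 75.7 and 70.5 with MLg, so that all libraries with C2C12 lay above EO771 alone, but the log2 fold change of 0.17 did not pass (95% interval -0.05 to 0.39, adjusted p = 0.237). Dut, the dUTPase that keeps uracil out of DNA, fell by 0.36 (adjusted p = 0.0415), and this call ended whichever of the 8 libraries was left out (adjusted p from 0.0513 to 0.101).

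Of the chromatin and regulatory genes, Chaf1a, Chaf1b and Uhrf1 fell and Slbp and E2f1 did not pass. Chaf1b, the middle subunit of the histone chaperone CAF-1, stood at 27.7, 29.9, 30.4 and 30.5 CPM in EO771 alone, 20.6, 19.2, 21.3 and 17.8 with C2C12 and 27.6, 29.2, 29.5 and 23.7 with MLg. Its libraries with C2C12 lay below all others, and the fall was 0.66 (SE 0.11, adjusted p = 0.000149). The large subunit Chaf1a fell by 0.51 (SE 0.13, adjusted p = 0.00472), with 4648 of its 8854 exon bases overlapping Ubxn6 on the other strand. Uhrf1, which guides maintenance methylation to newly made DNA, was at 321, 404, 379 and 348 CPM in EO771 alone, 338, 332, 315 and 278 with C2C12 and 365, 375, 371 and 336 with MLg. The groups overlapped, and the fall of 0.27 (adjusted p = 0.047) ended whichever library but R3-1 of EO771 alone was left out (7 of 8 fits, adjusted p up to 0.151). Slbp, which binds the stem-loop of histone mRNA, stood at 67.4, 64.7, 69.3 and 61.8 CPM in EO771 alone, 63.9, 59.0, 62.2 and 56.2 with C2C12 and 71.4, 61.9, 74.6 and 68.1 with MLg, and E2f1, a transcription factor of the E2F family, at 46.6, 53.4, 60.4 and 48.9 CPM in EO771 alone, 46.6, 47.2, 51.9 and 53.8 with C2C12 and 50.1, 43.4, 49.0 and 49.2 with MLg. Neither gene's groups separated, and their log2 fold changes with C2C12 were -0.20 (adjusted p = 0.0825) and -0.14 (95% interval -0.35 to 0.06, adjusted p = 0.272).

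EO771 cells from the co-culture with MLg gave another picture. By edgeR 0 of the 45 members fell and 0 rose against EO771 alone, whereas 3.6% of all genes tested fell and 5.99% rose. At an unadjusted p under 0.05 Dut and Pola1 were lower and no member was higher, and DESeq2 called 0. With the R number as a block 9 were lower at that unadjusted threshold, for which no share of all genes is given here. The median log2 fold change of the members was -0.08. In 5 members (Mcm2, Pcna, Pola1, Pole2 and Dut) all 4 libraries with MLg lay below all 4 of EO771 alone. In 40 the groups overlapped. The share of all genes with such a separation was not computed. Dut stood at 102, 91.2, 95.9 and 89.8 CPM in EO771 alone, 77.2, 74.8, 75.0 and 84.6 with C2C12 and 87.3, 48.5, 89.5 and 80.3 with MLg, where R5-1 with MLg was by far the lowest of the 12 libraries. The intervals bound how far single members may have moved. For Mcm10 the 95% interval was -0.36 to 0.19, for Cdc6 -0.36 to 0.26, for Mcm5 -0.31 to 0.25 and for Pcna -0.43 to 0.01. With the R number as a block Cdt1 (adjusted p = 0.0199) and Orc1 (adjusted p = 0.0286) were called lower. Both comparisons use the same 4 libraries of EO771 alone, so their values are not independent.

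The test of the difference between the co-cultures compared EO771 with C2C12 directly with EO771 with MLg. In it 28 of 45 members were lower with C2C12 and 0 higher, whereas 12.7% of all genes tested were lower and 15.0% higher. The median member lay 0.35 lower on the log2 scale. Mcm10 (-0.98, adjusted p = 3.85e-05), Cdc6 (-0.95, adjusted p = 0.00013), Orc1 (-0.66, adjusted p = 0.0067), Prim1 (-0.60, adjusted p = 0.00266) and Gins3 (-0.60, adjusted p = 0.00109) had the largest differences. All 4 libraries with C2C12 lay below all 4 with MLg in 12 members, against 7.74% of all genes tested. They were Mcm2, Mcm3, Mcm5, Mcm10, Cdc6, Orc1, Pola2, Prim1, Rpa2, Rrm2, Tyms and Chaf1b. Leaving out R3-1 of EO771 with C2C12 reduced the 28 to 16, the lowest count over single libraries left out, and a fit of all 28 libraries called 12.

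The comparisons with EO771 alone and with EO771 with MLg share the libraries with C2C12. Pcna, Pold2, Lig1 and Dut passed against EO771 alone and not against EO771 with MLg, and Fen1, Rrm2 and Slbp passed against EO771 with MLg and not against EO771 alone. Rrm2 stood 0.44 lower than with MLg (SE 0.11, adjusted p = 0.00859). The 13 members called in neither comparison were Mcm7, Mcm8, Gins2, Gins4, Gmnn, Rfc2, Rfc4, Prim2, Pold1, Pole2, Rpa1, Tk1 and E2f1. They include subunits whose partners fell, such as Prim2 beside Prim1, Pole2 beside Pole and Rpa1 beside Rpa2.

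Grown alone, the 3 lines stood in the order EO771, MLg, C2C12 for most members. Libraries are listed as R2-1, R3-1, R3-2 and R5-1 for C2C12 alone and R3-2, R5-2, R6-1 and R6-2 for MLg alone. All 45 members were lower in C2C12 alone than in EO771 alone, at a median of -2.86, whereas 36.2% of 18755 genes tested were lower and 42.0% higher. Mcm10 had the largest difference. It stood at 1.17, 1.18, 1.37 and 1.84 CPM in C2C12 alone and 15.4, 11.7, 11.2 and 11.2 CPM in MLg alone, far below the 141 to 165 CPM of EO771 alone. That is a log2 difference of -6.66 (SE 0.17) between C2C12 and EO771 and of -3.65 (SE 0.14) between MLg and EO771. Mcm5, Cdc6 and Uhrf1 also lay more than 5 log2 units lower in C2C12 than in EO771, at -5.53, -5.48 and -5.30.

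In MLg alone 41 members were lower than in EO771 alone (36.8% of all genes tested were lower and 40.8% higher) and 0 were higher. Gins2, Prim2, Chaf1b and E2f1 did not pass. E2f1 stood at 46.6, 53.4, 60.4 and 48.9 CPM in EO771 alone, 46.1, 58.3, 47.9 and 47.3 in MLg alone and 35.6, 34.5, 31.5 and 35.9 in C2C12 alone. The EO771 and MLg ranges overlapped, and C2C12 lay below both. Between C2C12 and MLg, 39 members were lower in C2C12 (30.9% of all genes tested) and 1 was higher (31.0%). That member was Orc6, at 31.3, 41.0, 43.7 and 31.5 CPM in C2C12 alone, 28.4, 22.5, 25.3 and 23.2 in MLg alone and 73.1, 57.8, 68.0 and 67.2 in EO771 alone. Its libraries of C2C12 lay above those of MLg and below those of EO771, and the log2 difference from MLg was 0.73 (SE 0.14, adjusted p = 0.000355). Rrm2 in C2C12 alone was uneven. It stood at 27.9, 23.8, 22.4 and 65.6 CPM there and 27.9, 28.4, 27.5 and 23.6 CPM in MLg alone, with R5-1 of C2C12 far above all the others. It passed as higher in C2C12 than in MLg without the C2C12 libraries of R3 (adjusted p = 0.00288) and without R3-2 alone (adjusted p = 0.0351).

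**Figure D4:**
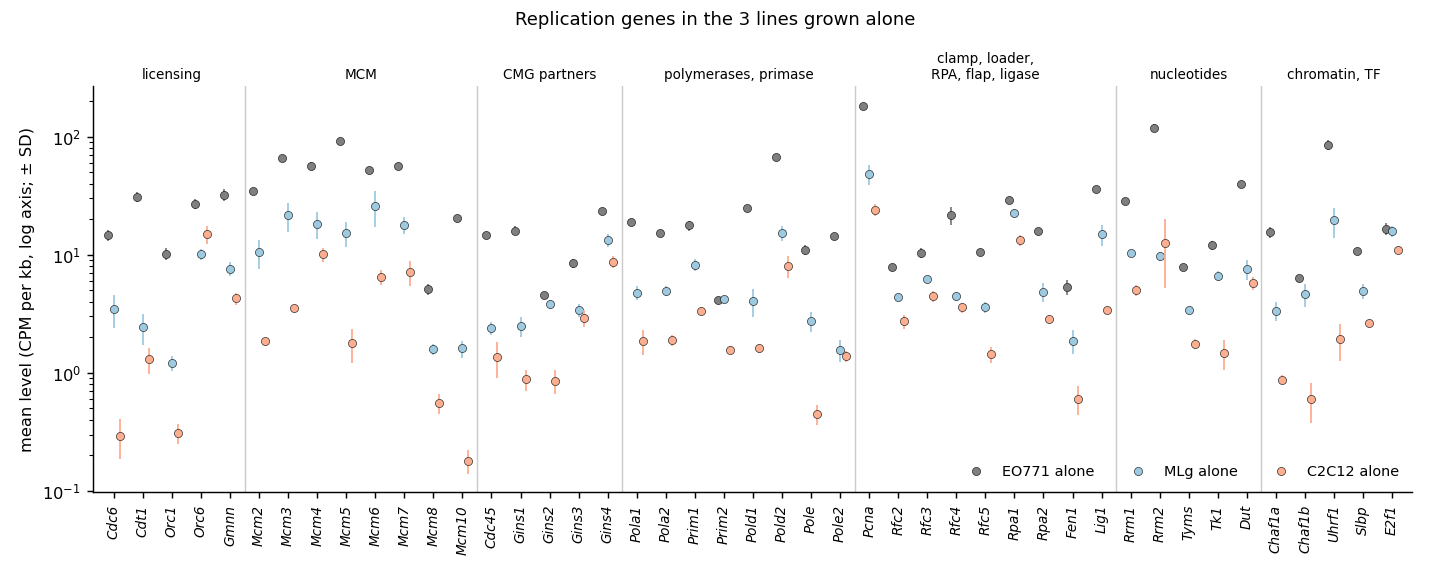
Mean level per kb of exon (CPM per kb, logarithmic axis, bars ± SD, n = 4 libraries) of the 45 genes in the 3 lines grown alone, ordered by role. EO771 lies highest for nearly every gene and C2C12 lowest, with Pcna at the top in each line (181, 48.2 and 24.1 CPM per kb in EO771, MLg and C2C12).

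Levels of different genes can be set side by side only per length. On the scale of CPM per kb of exon, Pcna was the highest member in each line grown alone, at 181 ± 6.89 (SD, n = 4) in EO771, 48.2 ± 9.35 in MLg and 24.1 ± 2.61 in C2C12. The median member stood at 17.7 CPM per kb in EO771, 4.94 in MLg and 1.93 in C2C12. The lowest member differed between lines, with Prim2 at 4.17 in EO771, Orc1 at 1.20 in MLg and Mcm10 at 0.181 in C2C12.

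In the host lines the genes called were higher after co-culture with EO771, and none of them passed once EO771 counts were subtracted. In MLg with EO771, 15 of 45 members were higher than in MLg alone and 0 lower, whereas 9.89% of 16823 genes tested were higher and 4.81% lower. All 45 log2 fold changes were above 0, with a median of 0.36. In 12 members all 4 libraries with EO771 lay above all 4 alone, against 11.2% of all genes tested. The members that rose were Mcm5, Mcm10, Cdt1, Cdc45, Gins1, Gins3, Orc1, Gmnn, Rfc4, Pold1, Pole2, Rrm2, Tyms, Tk1 and Chaf1a.

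Libraries of MLg with EO771 are listed as R5-1, R6-1, R6-2 and R7-1. Rrm2, the small subunit of ribonucleotide reductase, stood at 27.9, 28.4, 27.5 and 23.6 CPM in MLg alone and at 74.5, 50.6, 41.3 and 54.4 CPM with EO771. The groups did not overlap, and the level was 2.09-fold higher (1.06 on the log2 scale, SE 0.15, adjusted p = 0.00049). Cdt1 was measured at 11.0, 6.89, 6.33 and 6.27 CPM alone and 23.1, 12.9, 10.2 and 14.3 CPM with EO771, where R3-2 alone lay above R6-2 with EO771 (1.00, adjusted p = 0.0193). Mcm10 stood at 15.4, 11.7, 11.2 and 11.2 CPM alone and 29.1, 21.8, 19.2 and 27.0 CPM with EO771, without overlap (0.99, adjusted p = 0.000874). Pole2 and Pold1, subunits of polymerases epsilon and delta, came next. Pole2 was at 5.90, 4.22, 3.70 and 4.34 CPM alone and 9.29, 6.54, 6.73 and 8.24 with EO771, and Pold1 at 25.8, 22.1, 16.4 and 14.5 and 34.5, 31.6, 26.2 and 32.9. Both separated, with log2 fold changes of 0.78 (adjusted p = 0.0137) and 0.69 (adjusted p = 0.0175).

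With EO771 counts subtracted in proportion to the EO771-specific transcripts of each library, 0 members passed in MLg and the median fell to 0.15. Rrm2, at 55.2 CPM with EO771, came to 24.5 CPM after the subtraction, against 26.9 CPM in MLg alone (0.05 on the log2 scale, adjusted p = 0.889). Mcm10 came from 24.3 to 11.8 CPM, against 12.4 CPM alone. Single libraries also moved the count. It was 30 without R3-2 of MLg alone, the library with the highest level in 37 of 45 members, 6 without R5-2, 4 without R6-1 and 5 without R6-2 of that group, and 8 without R5-1 or R6-1 of MLg with EO771. Mcm10, Cdc45 and Rrm2 passed in each of these fits. With the R number as a block 28 members were higher. The 9.89% of all genes higher was counted with all libraries and no block. No such share is given here for the block or for single libraries left out.

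**Figure D5:**
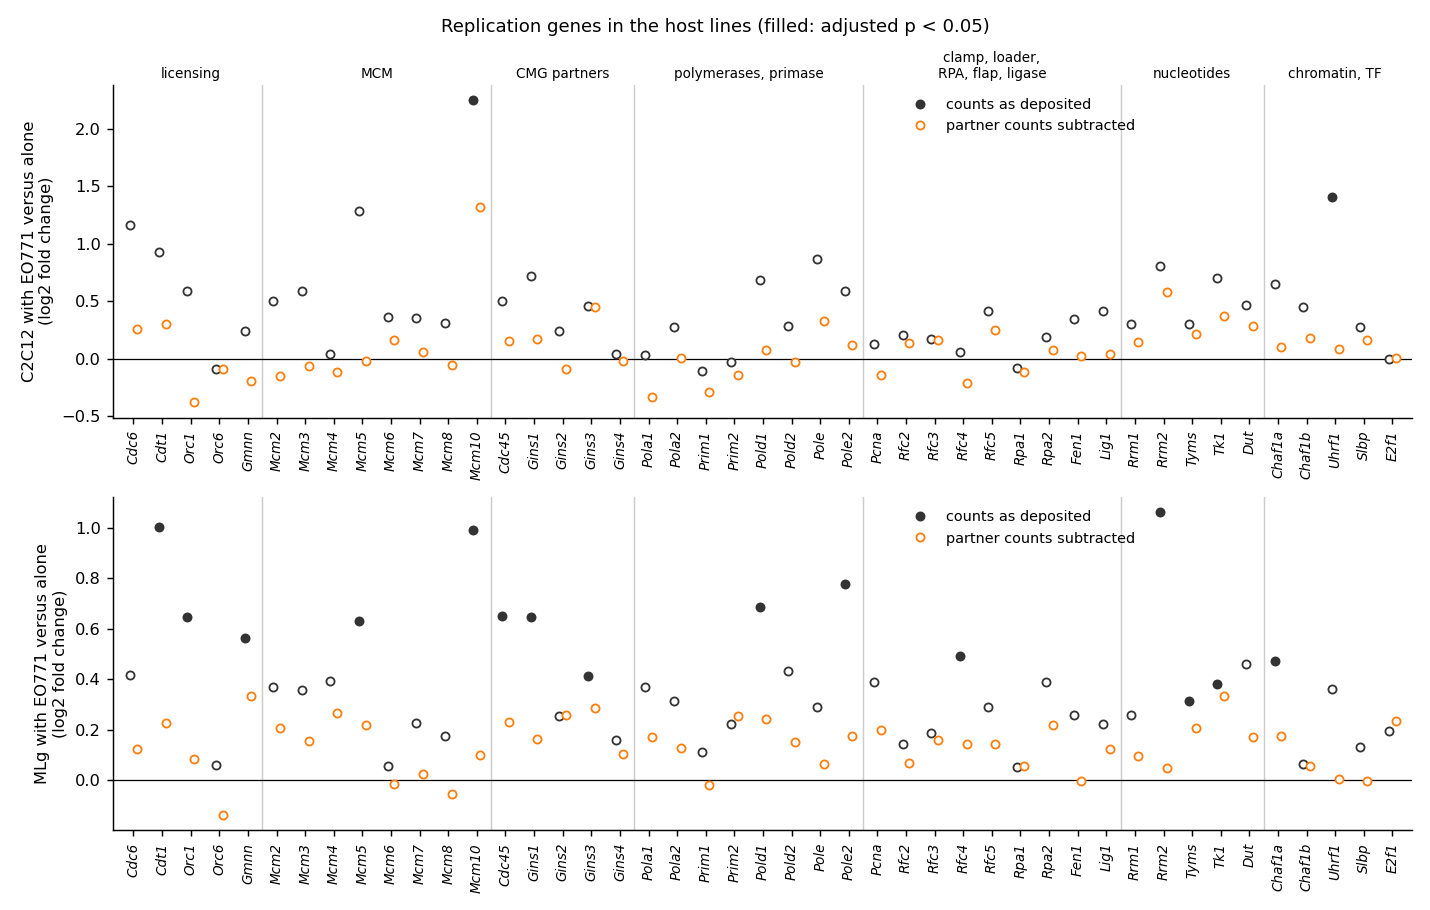
Log2 fold change of the 45 genes in C2C12 and in MLg after co-culture with EO771, each against the same line alone. Genes are ordered by role, without error bars, and points are drawn for counts as deposited and for EO771 counts subtracted. Filled points passed an adjusted p of 0.05: Mcm10 and Uhrf1 in C2C12 and 15 genes in MLg, all of them above 0. The points with EO771 counts subtracted are all open, as none passed.

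In C2C12 with EO771, 2 of 45 members were higher than in C2C12 alone and 0 lower, whereas 2.58% of 16625 genes tested were higher and 0.0962% lower. At an unadjusted p under 0.05, 21 members were higher, and DESeq2 called 8. The 2.58% holds for edgeR at an adjusted p under 0.05. No share of all genes is given here for the unadjusted threshold or for DESeq2. The median log2 fold change of the members was 0.35. With the R number as a block, which was taken to pair these libraries, Mcm10 and Uhrf1 were again the members that passed, 6 members were higher at an unadjusted p under 0.05 and the median was 0.24. In 10 members all 4 libraries with EO771 lay above all 4 alone, as in 6.54% of all genes tested. Libraries with EO771 are listed as R3-1, R5-1, R5-2 and R6-1. Mcm10 stood at 1.17, 1.18, 1.37 and 1.84 CPM in C2C12 alone and 3.68, 7.71, 8.18 and 7.92 CPM with EO771. No libraries overlapped, R3-1 was the lowest of those with EO771, and the log2 fold change was 2.25 (SE 0.28, adjusted p = 0.00194), or 1.80 (SE 0.25, adjusted p = 0.00402) with the block. Uhrf1 was at 4.89, 7.62, 8.57 and 11.9 CPM alone and 13.1, 25.8, 26.9 and 24.6 CPM with EO771. Again no libraries overlapped, but the call (1.40, SE 0.28, adjusted p = 0.0302) ended in 6 of 8 fits without a single library. With the block Uhrf1 was at 0.90 (SE 0.17, adjusted p = 0.027).

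With EO771 counts subtracted, 0 members passed in C2C12 and the median was 0.07. Mcm10 in C2C12 with EO771 came from 6.87 to 3.37 CPM, against 1.39 CPM alone (1.32, SE 0.42, adjusted p = 0.455), and Uhrf1 from 22.6 to 8.49 CPM, against 8.23 CPM alone (0.08, adjusted p = 0.992). R3-1 of C2C12 with EO771 was the lowest of its group in 31 of 45 members, and without it 8 were called higher. Myotube markers stood apart in the same library, at a summed 728 CPM against 2158 to 3114 CPM in the other 3, as they did in the R3 libraries of C2C12 alone. Without the C2C12 libraries of R3, Mcm5 and Mcm10 were higher and Uhrf1 did not pass (adjusted p = 0.0561), at a median of 0.42 over the members. Left out singly, R2-1, R3-1 or R3-2 of C2C12 alone, or R5-1, R5-2 or R6-1 with EO771, each reduced the count to 1. The sum of the 45 genes was 645 to 761 CPM in C2C12 alone and 708, 1015, 920 and 911 CPM with EO771, so only R3-1 lay within the range of the cells alone.

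The C2C12 and MLg responses to EO771 were then compared with each other. Only Mcm10 differed, rising more in C2C12 by 1.27 on the log2 scale (SE 0.31, adjusted p = 0.0413), whereas 0.778% of 18647 genes tested differed in that direction and 1.06% in the other. The call ended in 14 of 16 fits without a single library, with the R number as a block (adjusted p = 0.0736), with DESeq2 size factors (adjusted p = 0.0525) and with EO771 counts subtracted (adjusted p = 0.337). No other member's difference between the lines passed, so the larger number of calls in MLg is not shown to be a larger response.

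Another 60 genes of the replication pathway that are not among the 45 were all tested. In EO771 with C2C12, 33 of them were lower and 4 higher than in EO771 alone, where 14.3% of all genes tested were lower and 18.7% higher, and their median was -0.38. The largest falls were those of Shmt1 (-1.29), a folate enzyme that supplies thymidylate synthesis, the helicase gene Recql4 (-0.95) and the nuclease genes Exo1 (-0.81) and Dna2 (-0.81), together with Dtl (-0.76), which targets Cdt1 for destruction. Of the E2F transcription factors on this list E2f3 (-0.57), E2f4 (-0.30), E2f6 (-0.53) and E2f7 (-0.46) fell, as did Tfdp1 (-0.58), a binding partner of E2F proteins. E2f2 (0.08), E2f5 (0.03) and E2f8 (0.14) did not pass. With C2C12 counts subtracted the numbers were again 33 lower and 4 higher.

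The 4 that rose were Pold4, Rb1, Rbl2 and Rrm2b. Pold4, the smallest subunit of polymerase delta, stood at 3.87, 3.33, 3.54 and 4.01 CPM in EO771 alone, 11.7, 12.6, 13.3 and 26.3 with C2C12 and 6.52, 4.94, 6.29 and 6.52 with MLg. The libraries with C2C12 lay above all others, and the rise was 2.04 (SE 0.22, adjusted p = 1.5e-06). C2C12 alone carried Pold4 at 21.0, 15.3, 14.4 and 22.2 CPM, and after subtraction the rise was 2.05 (adjusted p = 4.01e-06). Rb1 and Rbl2 encode pocket proteins that bind and restrain E2F factors. Rb1 was at 4.61, 3.98, 5.11 and 6.43 CPM in EO771 alone, 9.91, 8.51, 11.7 and 12.4 with C2C12 and 4.53, 4.49, 5.01 and 4.48 with MLg, and Rbl2 at 18.5, 19.2, 18.8 and 19.7 CPM in EO771 alone, 30.8, 29.8, 29.0 and 35.0 with C2C12 and 22.3, 15.0, 19.5 and 19.7 with MLg. In C2C12 alone they stood at 47.5, 44.0, 46.9 and 52.5 and 112, 109.6, 114 and 105 CPM. Both lay higher in every library with C2C12 than in the other 8, and rose by 1.00 (adjusted p = 0.000212) and 0.63 (adjusted p = 0.000256), or by 0.95 and 0.60 after subtraction. Rrm2b, the p53-induced small subunit of ribonucleotide reductase, rose by 0.50 (adjusted p = 0.00273).

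In EO771 with MLg 2 of the 60 were higher, E2f8 (0.33) and Pold4 (0.73), and 0 lower, against 5.99% and 3.6% of all genes tested. Between the co-cultures 25 were lower with C2C12 and 3 higher, against 12.7% and 15.0% of all genes. In C2C12 with EO771 4 were higher (Exo1, Recql4, Timeless and Dbf4) and 0 lower, where 2.58% of all genes were higher. In MLg with EO771 16 were higher and 0 lower, where 9.89% of all genes were higher, and the 16 were led by Recql4 (1.41) and E2f8 (1.02). With EO771 counts subtracted these numbers of higher genes were 0 in C2C12 and 2 in MLg.

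Over the 12 EO771 libraries the levels of the 45 genes varied together to different degrees. Among their 990 pairs Pearson's r of log2 CPM ran from -0.65 to 0.98, with a median of 0.62. These correlations share the libraries, their depth and the 3 groups, and serve as a description. Among 8666 genes with a mean of at least 10 CPM, those most like Mcm5 were Mybl2, Chek1, Foxm1, Mcm3 and Imp4 (r from 0.97 to 0.98). Those most like Mcm10 were Shmt1, Polr1b, Pwp2, Hspd1 and Mgme1 (r of 0.98 each). Only 1 of these 10 genes, Mcm3, is among the 45.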

How the data were processed

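Each library has a deposited table of raw counts by gene, without normalization. The submitters' processing notes name STAR 2.7.10a, Subread 2.0.1, featureCounts, fastp and DESeq2, with no role for each. No source used here gives the genome build, the annotation or whether reads were counted by strand. Identifiers were matched to GENCODE M21 on GRCm38 for symbols, coordinates (1-based) and exon lengths. The 45 members, their roles and the other gene lists were chosen with earlier results of these data known.

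CPM was computed from the deposited counts and library totals of 27.6 to 96.5 M. Groups were compared in R 4.3.3 with the quasi-likelihood F test of edgeR 4.0.16, after TMM normalization and filterByExpr (at least 10 counts per library and 15 in total). P-values were adjusted by Benjamini-Hochberg across every gene in the test, and the threshold was 0.05. Groups of the same line were fitted together with 1 mean each, the C2C12 and MLg libraries together for the difference of their responses, and the lines grown alone in a further fit. Every adjusted p in the text comes from edgeR unless DESeq2 (1.42.0) is named.

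Partner counts were subtracted in proportion to each library's share of partner-specific transcripts, defined as genes with a mean of at least 10 CPM in the partner grown alone and at most 0.1 CPM in the recipient line alone. Other alternatives were DESeq2 size factors, the DESeq2 Wald test, no filter on low counts, a fit of all 28 libraries, even counts halved, the R number as a block, the C2C12 libraries of R3 left out, and single libraries left out. The fits were tested on simulated counts.

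Members were named by a panel of 30 with at least 1 per role, plus the 5 largest rises and falls among called members of each comparison. The other members are given by counts and ranges, or by fold changes chosen after their values were seen. Copies of a member were sought among annotated transcripts at 95% identity or more over at least 400 bases.

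The R number of the library names is not explained in the labels. Between C2C12 alone and C2C12 with EO771 all 4 pairs of libraries with the same number deviated together from their group means (r from 0.28 to 0.58), so the numbers were taken to pair these samples. Of the 12 pairs with different numbers (r from -0.67 to 0.30) 4 were also over 0.1. The highest, R5-1 alone and R6-1 with EO771 (0.2958), exceeded the lowest pair of the same number, R5-1 in both groups (0.2799). R2-1 alone and R6-1 with EO771 have no library of the same number in the other group, so the pairing rests on R3 and R5. With that block the number of members higher in C2C12 with EO771 was again 2. Only even counts occur in 5 libraries, which are R3-1, R5-1 and R6-1 of EO771 with C2C12 and R5-1 and R6-1 of MLg with EO771. For R5-1 and R5-2 of EO771 with C2C12 the file names are exchanged relative to the sample titles, and the sample recorded with each file was used. Replicates always differed by more than sampling noise, with chi-square at least 13.4 times its degrees of freedom in each of 42 pairs. In EO771 with MLg, R6-1 and R6-2 differed from R5-1 and R7-1 by 106.6 to 191.3 times. In the other EO771 groups the pairs ran from 13.4 to 55.1 times.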

Additional observations from a re-analysis of the deposited data

Results flagged for a closer look

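In groups of 4 libraries a single library was marked where its gap to the nearest of the others as a share of the group's range exceeded Dixon's 95% critical value. Over the 45 members and their sum, 27 of 322 groups of values were marked, and chance marks about 1 in 20.

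R3-1 of C2C12 with EO771 was the lowest of its group for Mcm10 (3.68 CPM against 7.71 to 8.18), Cdc6 (1.63 against 4.11 to 4.37), Rrm1 (49.7 against 75.7 to 80.2), Rrm2 (25.8 against 71.8 to 77.8) and Uhrf1 (13.1 against 24.6 to 26.9). R3-1 of EO771 with C2C12 was the lowest for Cdc45 (31.2 against 43.9 to 46.1), Lig1 (104.7 against 131.8 to 134.6) and Pola2 (79.3 against 101 to 105). The marks of R3-1 thus cover both lines of the co-culture of EO771 with C2C12, although the labels do not say that the 2 libraries came from the same dish.

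R3-2 of MLg alone was the highest of its group for Mcm6 (180.7 CPM against 95.5 to 103), Mcm10 (15.4 against 11.2 to 11.7), Cdt1 (11.0 against 6.27 to 6.89), Chaf1b (28.8 against 19.0 to 19.7), Mcm7 (99.0 against 70.1 to 73.7) and Slbp (36.7 against 27.6 to 28.1). R5-2 of MLg alone was the highest for Tyms (22.4 against 20.2 to 20.5) and E2f1 (58.3 against 46.1 to 47.9).

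R5-1 of C2C12 alone was the highest of its group for Mcm5 (10.6 CPM against 5.71 to 6.23), Rpa2 (9.64 against 8.12 to 8.27), Pold2 (20.1 against 13.2 to 14.2) and Rrm2 (65.6 against 22.4 to 27.9), and R2-1 was the lowest for Gins4 (9.68 against 12.2 to 12.6). R5-1 of C2C12 with EO771 was the highest for Tyms (15.4 against 12.9 to 13.3), and R5-1 of MLg with EO771 for Dut (29.8 against 22.3 to 23.5).

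R5-1 of EO771 with MLg was the lowest of its group for Gins3 (19.1 CPM against 25.5 to 26.4) and Gins4 (24.5 against 32.6 to 33.6), and R7-1 for Mcm7 (206 against 237 to 242.5). R3-2 of EO771 alone was the highest for Mcm7 (267.6 against 242 to 246).

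The effect on EO771 differed between the co-cultures by the test of the difference itself, in which 28 members were lower with C2C12 than with MLg. The responses of C2C12 and MLg to EO771 differed for Mcm10, by 1.27 on the log2 scale, a call that ended in 14 of 16 fits without a single library and with the R number as a block, DESeq2 size factors or EO771 counts subtracted.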

How the results depend on the processing

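No member's fold change that passed in a comparison changed sign under any alternative run. Over all members, comparisons and alternatives, single libraries left out included, 6182 results kept their side of the threshold, 208 lost the call and 90 gained it. Among the 6182 were 227 uncalled fold changes that changed sign, 14 of them in C2C12 with EO771 after subtraction. The cause was not tested for any change below. Shares of all genes in the alternative fits are not given here, so a changed count is not shown to be particular to the members. In a fit of all 28 libraries the numbers of members were 17 lower in EO771 with C2C12 against alone, 12 lower with C2C12 against with MLg, 13 higher in C2C12 with EO771, 9 higher in MLg with EO771 and 2 higher in the C2C12 than in the MLg response. Partner counts subtracted left 0 higher in C2C12 with EO771, 0 in MLg with EO771 and 0 in the response difference, at median log2 fold changes of 0.07 in C2C12 and 0.15 in MLg. DESeq2 called 8 higher in C2C12 with EO771, and DESeq2 size factors left 0 in the response difference. Without the C2C12 libraries of R3, 2 members were higher in C2C12 than in MLg.

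With the R number as a replicate block, the counts were 1 higher in EO771 with C2C12, 2 lower in EO771 with MLg, 28 higher in MLg with EO771 and 0 higher in the response difference. Outside C2C12 the correlations of same-numbered deviations were weaker. In EO771 they were 0.0185 to 0.146 (median 0.0535, 2 of 12 over 0.1). Pairs of different numbers there ran from -0.152 to 0.0936 (median -0.0206, 0 of 36 over 0.1). In MLg same-numbered pairs ran from -0.14 to 0.0836 (median 0.0176, 0 of 5). Those of different numbers ran from -0.16 to 0.186 (median -0.0144, 3 of 11). What the number stands for in these lines was not tested. At an unadjusted p under 0.05 the block moved the members higher in C2C12 with EO771 from 21 to 6 and those lower in EO771 with MLg from 2 to 9. It moved no other count at the adjusted threshold by over 1.5 times.

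Single libraries left out gave 16 to 28 members lower in EO771 with C2C12 against with MLg, 1 to 8 higher in C2C12 with EO771, 4 to 30 higher in MLg with EO771, 0 to 1 higher in the response difference, and 1 to 2 higher in C2C12 than in MLg. Counts are fewest for the lowest members, such as Orc1 and Mcm10 in C2C12 alone at about 1 CPM. The lowest member of each C2C12 library alone still had 57 to 95 counts.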
